A study of Homo sapiens with 3 samples.

Results

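The RNA of 10 receptor tyrosine kinases was described in 3 human lung cell lines: MET, MST1R, AXL, FGFR1, FGFR2, FGFR3, PDGFRB, DDR1, DDR2 and ROR1. They were taken by gene name from the mRNA table, where they are 10 of 20494 gene names used, and by host gene from the table of circular RNAs (circRNAs), where 124 of 92509 circRNAs belong to them. HCC827 is a lung adenocarcinoma line with a mutated EGFR gene, A549 an adenocarcinoma line whose EGFR is wild type, and BEAS-2B an immortalized bronchial line that stands for normal lung. All 3 lines were grown in DMEM with fetal bovine serum and their labels name no treatment. Each line stands for the cells of 1 donor and was sequenced as 1 library of RNA depleted of ribosomal RNA. Without replicates no spread is known, so differences are given as sizes only and nothing was tested.

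Receptor tyrosine kinases are membrane proteins that bind a ligand outside the cell, pair up, and phosphorylate tyrosines on each other inside it. Adaptor proteins dock on these phosphotyrosines and pass the signal to the RAS-MAPK, PI3K and STAT pathways. In lung adenocarcinoma, MET and AXL are known as receptors through which cells with mutated EGFR can keep these pathways active when EGFR is inhibited.

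The mRNA values were FPKM (fragments scaled to transcript length and to all mapped fragments of the library). The circRNA values were TPM (each circRNA's share of the total over all listed circRNAs, also scaled to length). That total was 1.00266e+06 TPM in HCC827, 1.00092e+06 in A549 and 999856 in BEAS-2B. Between 42.9% and 43.5% of the gene names stood at exactly 1 FPKM in each line, which is called the floor here. Genes that cells of any kind use were also listed at 1: COPE, a subunit of the coat of transport vesicles, had 1 FPKM in HCC827, against 9.23 in A549 and 52.9 in BEAS-2B. Likewise, 11 genes in HCC827, 12 in A549 and 14 in BEAS-2B stood at the floor although both other lines had over 20 FPKM. A value of 1 was therefore read as listed at the floor, not as absence of the RNA, and differences from it depend on the floor itself. Neither unit keeps counts, so the depth of the libraries is unknown.

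The promoters of MET and MST1R, whose listed mRNA was highest in HCC827, and of AXL and PDGFRB, whose listed mRNA was highest in BEAS-2B, are printed as 300 bases from RefSeq on GRCh38.p14, with 250 bases before the gene start and 50 after it. Capitals mark the Sp/KLF GC box GGGCGG and the ZEB E-box CAGGTG on either strand. The MET window lies at chr7:116671946-116672245 on the plus strand and the MST1R window at chr3:49903824-49904123 on the minus strand. The AXL window lies at chr19:41218973-41219272 on the plus strand and is the first of 2 in the table, and the PDGFRB window lies at chr5:150155796-150156095 on the minus strand.
MET: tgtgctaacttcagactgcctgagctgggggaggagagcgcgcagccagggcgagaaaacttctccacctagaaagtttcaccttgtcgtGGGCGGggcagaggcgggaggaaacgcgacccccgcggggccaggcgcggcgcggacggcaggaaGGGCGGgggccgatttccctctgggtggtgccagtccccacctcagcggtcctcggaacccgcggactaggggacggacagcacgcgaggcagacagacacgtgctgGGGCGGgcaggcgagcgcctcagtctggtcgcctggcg
MST1R: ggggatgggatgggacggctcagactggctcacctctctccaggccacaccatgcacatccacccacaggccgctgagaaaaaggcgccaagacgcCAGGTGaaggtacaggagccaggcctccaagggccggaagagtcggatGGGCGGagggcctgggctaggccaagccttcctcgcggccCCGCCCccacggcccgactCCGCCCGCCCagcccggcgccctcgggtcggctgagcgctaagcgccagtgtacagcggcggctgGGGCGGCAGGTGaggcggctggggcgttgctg
AXL: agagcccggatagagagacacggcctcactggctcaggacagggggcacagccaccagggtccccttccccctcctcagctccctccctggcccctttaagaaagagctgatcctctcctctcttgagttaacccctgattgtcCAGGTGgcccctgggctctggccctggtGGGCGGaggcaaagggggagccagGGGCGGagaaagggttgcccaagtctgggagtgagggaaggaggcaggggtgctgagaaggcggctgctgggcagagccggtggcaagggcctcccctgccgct
PDGFRB: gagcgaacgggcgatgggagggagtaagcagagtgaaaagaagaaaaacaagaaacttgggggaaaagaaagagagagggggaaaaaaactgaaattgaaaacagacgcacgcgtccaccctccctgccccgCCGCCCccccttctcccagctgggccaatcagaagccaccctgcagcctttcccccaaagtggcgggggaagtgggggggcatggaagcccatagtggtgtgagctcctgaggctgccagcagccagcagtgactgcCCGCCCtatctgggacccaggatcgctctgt
The GC box occurred 3 times in the MET window, 5 times in the MST1R window, and 2 times each in the AXL and PDGFRB windows. A pair of the matches in MST1R overlap each other. At least 1 GC box was found in 45.0% of 35116 promoter windows of the same length. The ZEB E-box occurred 2 times in MST1R and 1 time in AXL, and 20.6% of all windows hold it. Of the 2 AXL windows, only the printed window held a GC box or a ZEB E-box. The AP-1 motif TGANTCA, held by 7.71% of all windows, was found in none of the 4 printed windows. Of the other members with windows, DDR1 held it in 1 of 8 and DDR2 in 1 of 3, and FGFR2, FGFR3 and ROR1 in none. Their highest number of GC boxes in a window was 8 for FGFR3, 5 for FGFR2, 3 for DDR1 and 0 for DDR2 and ROR1. MET and MST1R had 30 and 25 CG pairs, AXL and PDGFRB had 7 and 11, and the median over all windows was 14. Such a match is a run of letters and says nothing of binding in these cells.

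Among 9 deposited lists of predicted miRNA targets, 5 held a member. The 3 miRNAs with 4 members each are printed from RefSeq, with the seed (bases 2 to 8, which pairs with the target) in capitals.
miR-942-5p: uCUUCUCUguuuuggccaugug
miR-767-5p: uGCACCAUgguugucugagcaug
miR-889-3p: uUAAUAUCggacaaccauugu
The list of miR-942-5p held MET, AXL, FGFR2 and DDR2, that of miR-767-5p held AXL, FGFR3, DDR2 and ROR1, and that of miR-889-3p held FGFR1, FGFR2, PDGFRB and ROR1. These lists held 18.4%, 17.2% and 22.6% of all gene names used, in the same order. The list of miR-1252-5p held FGFR2, PDGFRB and DDR1 among 26.9% of all names, and that of miR-1299 held FGFR2 and PDGFRB among 26.0%. No seed was shared between the 5 miRNAs. The miRNAs themselves were not analysed here.

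MET, the receptor for hepatocyte growth factor (HGF), had 223 FPKM in HCC827, 57.9 FPKM in A549 and 25.4 FPKM in BEAS-2B. Both adenocarcinoma lines were thus above BEAS-2B, and HCC827 was the highest. On the log2(FPKM + 1) scale, on which all differences of mRNA are given, MET was 3.09 higher in HCC827 than in BEAS-2B, 1.16 higher in A549 than in BEAS-2B and 1.93 higher in HCC827 than in A549. In HCC827 the MET level exceeded that of 99.4% of all gene names, against 97.4% in A549 and 91.5% in BEAS-2B. MST1R, also named RON, is the other receptor of this family and binds macrophage-stimulating protein. It had 4.75 FPKM in HCC827 and was listed at the floor in A549 and in BEAS-2B. The difference was 1.52 for HCC827 against either line.

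AXL, which binds GAS6 and belongs to the TAM family with TYRO3 and MERTK, ran the other way. It was listed at the floor in HCC827, with 10.3 FPKM in A549 and 50.2 FPKM in BEAS-2B. The AXL difference was -4.68 for HCC827 minus BEAS-2B, -2.18 for A549 minus BEAS-2B and -2.50 for HCC827 minus A549, so each was past 2-fold. Of the members, AXL thus had the most distant values between HCC827 and BEAS-2B, with the floor as one of them. COPE, named above, SLIRP, a mitochondrial RNA-binding protein, and the annexin ANXA6 were the 3 genes nearest to AXL over the 3 lines. All 3 were also listed at the floor in HCC827, and their distances were 0.16, 0.81 and 0.85 on the log2(FPKM + 1) scale. Whether the floor value of AXL in HCC827 reflects its RNA was not tested.

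**Figure D1:**
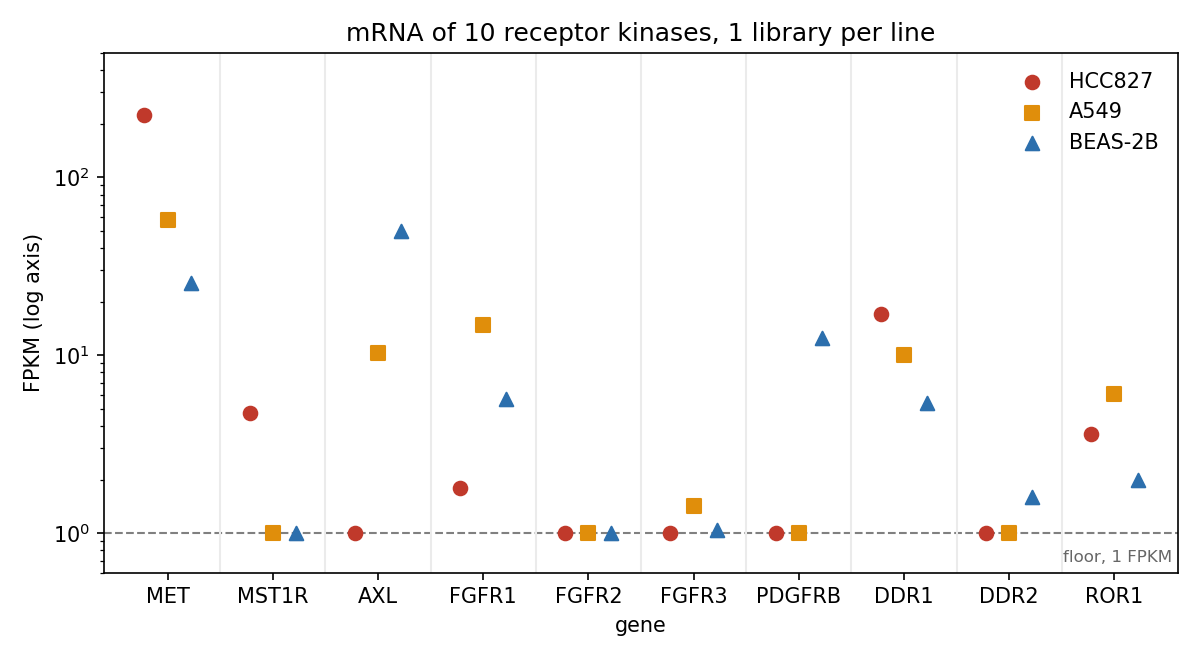
FPKM of the 10 receptor kinases on a log axis, with 1 point per line (HCC827, A549, BEAS-2B) and the floor of 1 as a dashed line. MET had 223 FPKM in HCC827 against 25.4 in BEAS-2B, while AXL had 1 in HCC827 against 50.2 in BEAS-2B.

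FGFR1, a receptor for fibroblast growth factors, was highest in A549. It had 1.79 FPKM in HCC827, 14.8 FPKM in A549 and 5.68 FPKM in BEAS-2B. Its difference was 1.24 for A549 minus BEAS-2B, -1.26 for HCC827 minus BEAS-2B and -2.50 for HCC827 minus A549, so the adenocarcinoma lines stood on opposite sides of BEAS-2B. FGFR2 was listed at the floor in all 3 lines. FGFR3 had 1 FPKM in HCC827, 1.42 in A549 and 1.04 in BEAS-2B, all within 2-fold of each other.

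PDGFRB, a receptor for platelet-derived growth factors that is known from fibroblasts and pericytes, was listed at the floor in HCC827 and in A549 and had 12.5 FPKM in BEAS-2B. Its difference from BEAS-2B was -2.75 in either line. DDR1 and DDR2 bind collagen, DDR1 mostly in epithelial cells and DDR2 mostly in mesenchymal cells. DDR1 had 17.1 FPKM in HCC827, 10.1 FPKM in A549 and 5.39 FPKM in BEAS-2B, the same order as MET. DDR1 was 1.50 higher in HCC827 than in BEAS-2B, while its differences of 0.79 for A549 minus BEAS-2B and 0.71 for HCC827 minus A549 were within 2-fold. DDR2 was listed at the floor in HCC827 and A549 and had 1.60 FPKM in BEAS-2B. ROR1, a receptor of the WNT5A branch of Wnt signalling, had 3.63 FPKM in HCC827, 6.03 FPKM in A549 and 1.98 FPKM in BEAS-2B. ROR1 was 1.24 higher in A549 than in BEAS-2B, and the difference of 0.64 for HCC827 minus BEAS-2B was within 2-fold.

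Genes were called higher or lower from a 2-fold change in FPKM + 1 onwards, and only those that 1 or both lines of a pair listed above the floor were compared. In HCC827 against BEAS-2B, 9 of the 10 members could be compared. MET, MST1R and DDR1 were higher and AXL, FGFR1 and PDGFRB lower, beside 12.9% of all 13138 genes compared that were higher and 16.6% that were lower. In A549 against BEAS-2B, 8 members could be compared. MET, FGFR1 and ROR1 were higher and AXL and PDGFRB lower, beside 10.5% of 12952 genes that were higher and 15.3% that were lower. In HCC827 against A549, 7 members could be compared. MET and MST1R were higher and AXL and FGFR1 lower, beside 13.8% of 13100 genes that were higher and 12.4% that were lower. The median member difference was -0.03 for HCC827 minus BEAS-2B, 0.52 for A549 minus BEAS-2B and -0.28 for HCC827 minus A549, beside medians over all genes of -0.14, -0.16 and 0.02. Both comparisons with BEAS-2B share its library. After scaling by the median of ratios, 2083 genes were higher and 1623 lower in HCC827 than in BEAS-2B, in place of 1698 and 2181, and 1758 were higher and 1345 lower in A549 than in BEAS-2B, in place of 1361 and 1983. The member counts were the same as before under that scaling, except that DDR1 also passed 2-fold in A549 against BEAS-2B.

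**Figure D2:**
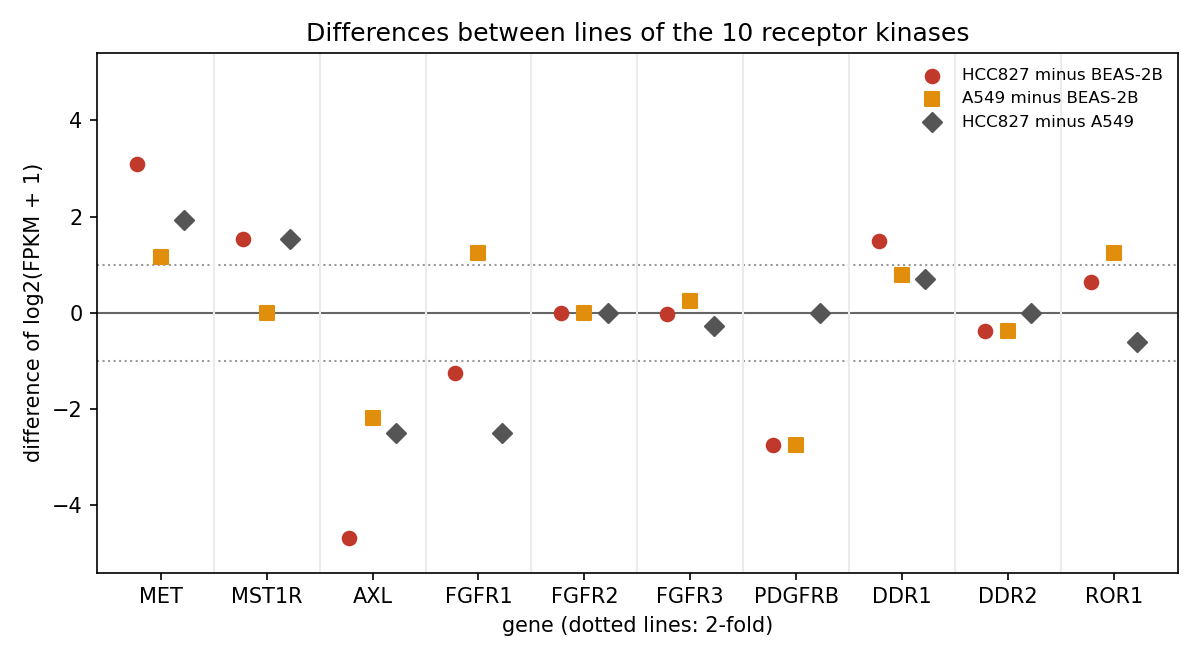
Difference of log2(FPKM + 1) of each receptor kinase, with 1 point for HCC827 minus BEAS-2B, for A549 minus BEAS-2B and for HCC827 minus A549, and dotted lines at 2-fold. FGFR1 lies at -1.26 for HCC827 minus BEAS-2B and at 1.24 for A549 minus BEAS-2B.

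Among 58 receptor kinases matched, the members included, 21 were above the floor in HCC827, 23 in A549 and 25 in BEAS-2B. The members made up 5, 6 and 8 of these in the same order, out of 10. The other 48 receptors gave 16, 17 and 17. Over all gene names, 43.0% in HCC827, 43.4% in A549 and 43.6% in BEAS-2B were at or below the floor. MET ranked 2 in HCC827 behind EGFR, 1 in A549, and 4 in BEAS-2B behind PTK7, AXL and EGFR. EGFR, the receptor mutated in HCC827, had 1058 FPKM in HCC827, 27.0 FPKM in A549 and 34.6 FPKM in BEAS-2B. MET alone held 14.6% of the summed FPKM of all 58 in HCC827, 20.5% in A549 and 8.17% in BEAS-2B. AXL held 16.1% in BEAS-2B, where it ranked 2, and 3.65% in A549. Summed over the 10 members the level was 255 FPKM in HCC827, 105 FPKM in A549 and 106 FPKM in BEAS-2B, entries at the floor counted as 1. So the summed level in A549 and BEAS-2B was close, while the member with most of it was MET in A549 and AXL in BEAS-2B. FGFR1 ranked 21 in HCC827, 4 in A549 and 11 in BEAS-2B, and DDR1 ranked 7, 10 and 12 in the same order of lines.

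**Figure D3:**
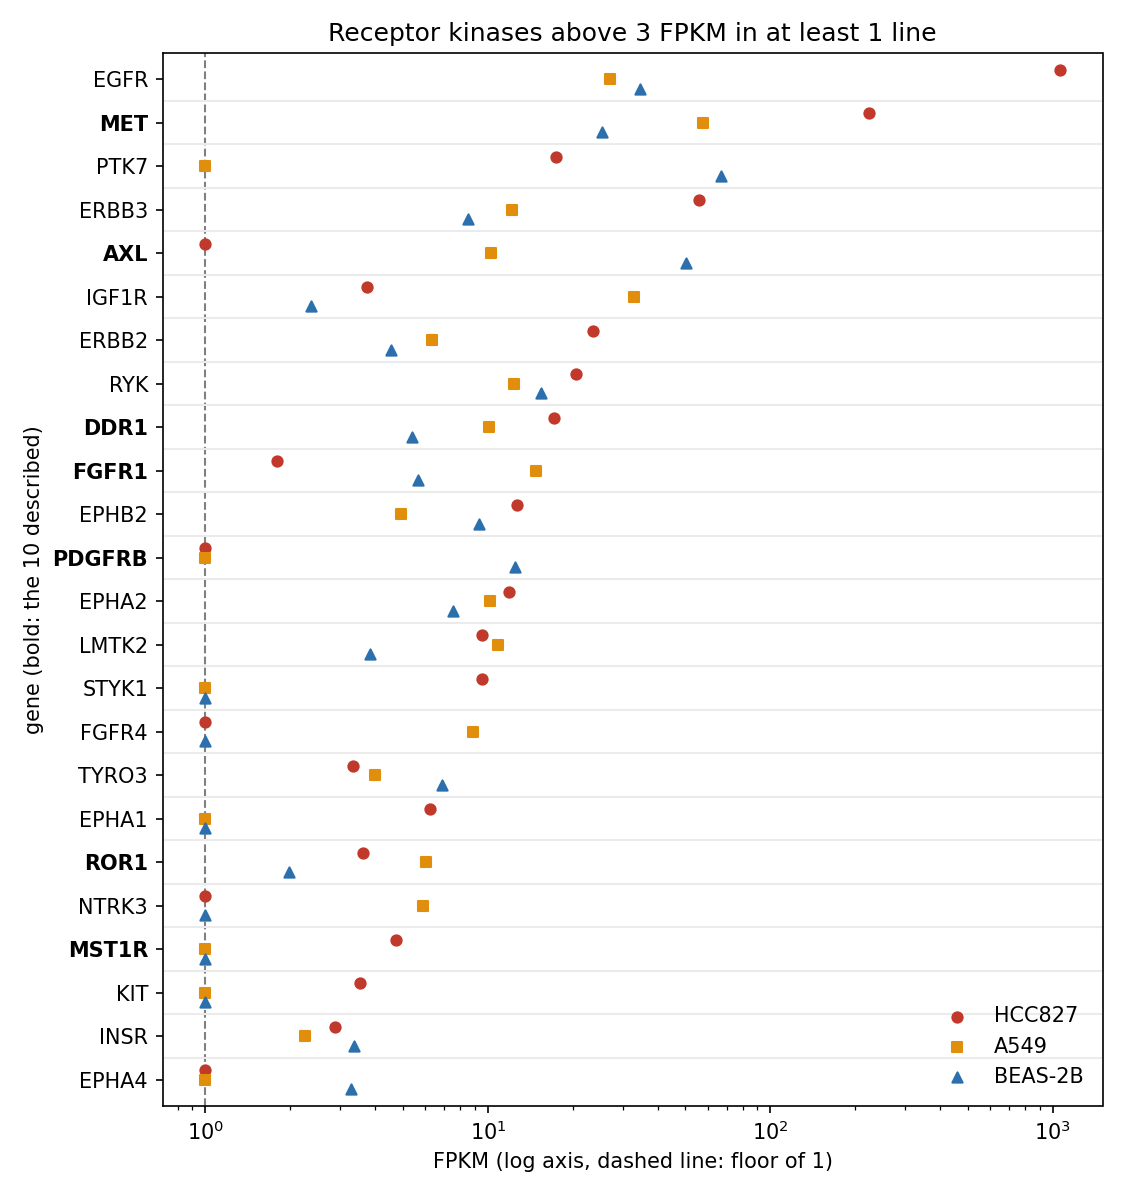
FPKM on a log axis of the 24 receptor kinases above 3 FPKM in at least 1 line, ordered by their highest value, with the 7 members among them in bold and 1 point per line. MET is the member with the highest level, and only EGFR lies above it in HCC827.

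Receptors of the same families outside the members were mostly low. FGFR4 had 8.87 FPKM in A549 and was listed at the floor in HCC827 and BEAS-2B. The FGF receptors listed above the floor in A549 were thus FGFR1, FGFR4 and, near the floor, FGFR3. KIT, a relative of PDGFRB, had 3.53 FPKM in HCC827 and stood at the floor elsewhere. Of the TAM receptors beside AXL, TYRO3 had 3.34 FPKM in HCC827, 3.99 in A549 and 6.90 in BEAS-2B, and MERTK had 1.93, 1.42 and 1 in the same order. Of 9 such receptors listed, 5 could be compared in HCC827 against BEAS-2B, where 1 was higher, and 5 in A549 against BEAS-2B, where 1 was higher. None was lower in these comparisons, whereas 1 was higher and 1 lower of 4 in HCC827 against A549.

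Of the other receptor kinases, ERBB2 had 23.5 FPKM in HCC827, 6.33 in A549 and 4.53 in BEAS-2B, and ERBB3 had 56.1, 12.1 and 8.54 in the same order, which is the order of MET and DDR1. IGF1R was highest in A549, as FGFR1 was, with 3.75 FPKM in HCC827, 33.0 in A549 and 2.37 in BEAS-2B. PTK7, a receptor with an inactive kinase domain, had 17.4 FPKM in HCC827, 1 in A549 and 66.6 in BEAS-2B. STYK1 had 9.55 FPKM in HCC827 and stood at the floor in the other lines, like MST1R. Of 40 listed, 6 were higher and 2 lower of 16 compared in HCC827 against BEAS-2B, 3 higher and 2 lower of 17 in A549 against BEAS-2B, and 7 higher and 2 lower of 17 in HCC827 against A549. Over all genes the shares higher and lower were 12.9% and 16.6% in HCC827 against BEAS-2B, and 10.5% and 15.3% in A549 against BEAS-2B. In HCC827 against A549 they were 13.8% and 12.4%. The same shares stand beside the counts of every list given here.

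The ligands of MET and AXL were listed mainly in different lines. HGF, the MET ligand, had 4.58 FPKM in HCC827 and was at the floor in A549 and BEAS-2B. MST1, the MST1R ligand, did not exceed 1.05 FPKM in any line. GAS6, the AXL ligand, had 1.01 FPKM in HCC827, 1 FPKM in A549 and 15.8 FPKM in BEAS-2B, the line in which AXL was also highest. PROS1, a ligand of TYRO3 and MERTK, had 15.1 FPKM in HCC827, 7.65 in A549 and 3.18 in BEAS-2B, the opposite order to GAS6. FGF2, a ligand of FGFR1, was at the floor in HCC827 and had 4.71 FPKM in A549 and 12.8 FPKM in BEAS-2B. Of the PDGF chains, PDGFC had 4.02 FPKM in HCC827, 2.85 in A549 and 15.0 in BEAS-2B. PDGFD, which signals through PDGFRB, was highest in A549, where PDGFRB was listed at the floor, with 1.45 FPKM in HCC827, 10.8 in A549 and 1 in BEAS-2B. WNT5A, which binds ROR1, had 1 FPKM in HCC827, 1.03 in A549 and 5.44 in BEAS-2B, so it was highest where ROR1 was lowest.

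Among coreceptors, the neuropilins NRP1 and NRP2, which bind several growth factors, were higher in both adenocarcinoma lines. NRP1 had 297 FPKM in HCC827, 220 in A549 and 68.9 in BEAS-2B, and NRP2 had 18.0, 11.2 and 3.17 in the same order. SDC1, a heparan sulfate proteoglycan that holds FGFs and HGF at the cell surface, had 24.2 FPKM in HCC827, 28.8 in A549 and 1 in BEAS-2B. SDC4, another member of the syndecan family, was low in A549 alone, with 92.7 FPKM in HCC827, 5.08 in A549 and 116 in BEAS-2B. Of 27 ligands and coreceptors listed, 6 were higher and 7 lower of 21 compared in HCC827 against BEAS-2B. In A549 against BEAS-2B, 6 were higher and 7 lower of 18, and in HCC827 against A549, 3 were higher and 3 lower of 18.

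Of the genes that act on the MET and MST1R ligands or shed receptors, the proteases ST14, PLAU and ADAM17 and the protease inhibitors SPINT1 and SPINT2 were higher in HCC827 than in BEAS-2B. ST14, the membrane protease matriptase, which cleaves the HGF precursor, had 60.5 FPKM in HCC827 and stood at the floor in A549 and BEAS-2B. SPINT1, an inhibitor of matriptase, had 27.9 FPKM in HCC827, 1 in A549 and 1.26 in BEAS-2B. SPINT2, a related inhibitor, had 64.8 FPKM in HCC827, 71.7 in A549 and 4.55 in BEAS-2B, and A549 thus listed this inhibitor while ST14 stood at the floor. PLAU, the urokinase protease, had 138 FPKM in HCC827, 19.2 in A549 and 42.1 in BEAS-2B. ADAM17, a protease that sheds receptors from the membrane, had 25.5 FPKM in HCC827, 31.1 in A549 and 11.1 in BEAS-2B. Of 10 genes listed for ligand activation and shedding, 5 were higher and none lower of 7 compared in HCC827 against BEAS-2B, beside 12.9% higher and 16.6% lower over all genes. In A549 against BEAS-2B, 2 were higher and 1 lower of 7, and in HCC827 against A549, 3 were higher and none lower of 7. The median difference of this list for HCC827 minus BEAS-2B was 1.69, beside -0.14 over all genes.

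Of the adaptors and effectors inside the cell, SRC alone differed 4-fold of FPKM + 1 in a pair of lines. GAB1, the adaptor through which MET signals, had 4.26 FPKM in HCC827, 1.03 in A549 and 1.85 in BEAS-2B. SRC, a kinase that acts below many receptors, had 1 FPKM in HCC827, 17.5 in A549 and 2.71 in BEAS-2B. FRS2, which couples FGF receptors to RAS, had 3.43 FPKM in HCC827, 3.86 in A549 and 8.96 in BEAS-2B. Of 19 listed, 18 could be compared in each pair. In HCC827 against BEAS-2B 3 were higher and 3 lower, in A549 against BEAS-2B 3 were higher and 2 lower, and in HCC827 against A549 3 were higher and 2 lower.

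Among negative regulators, CBL, which tags MET and EGFR for breakdown, had 7.44 FPKM in HCC827, 5.59 in A549 and 16.6 in BEAS-2B. Its epithelial relative CBLC had 8.59 FPKM in HCC827 and stood at the floor in the other lines, the pattern of MST1R and ST14. GRB14, an inhibitor of receptor signalling, had 12.004 FPKM in HCC827, 15.4 in A549 and 1 in BEAS-2B. The phosphatase PTPRK had 25.8 FPKM in HCC827, 5.58 in A549 and 12.9 in BEAS-2B. Of 14 listed, 2 were higher and 2 lower of 13 compared in HCC827 against BEAS-2B, 1 higher and 4 lower of 11 in A549 against BEAS-2B, and 4 higher and none lower of 13 in HCC827 against A549.

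**Figure D4:**
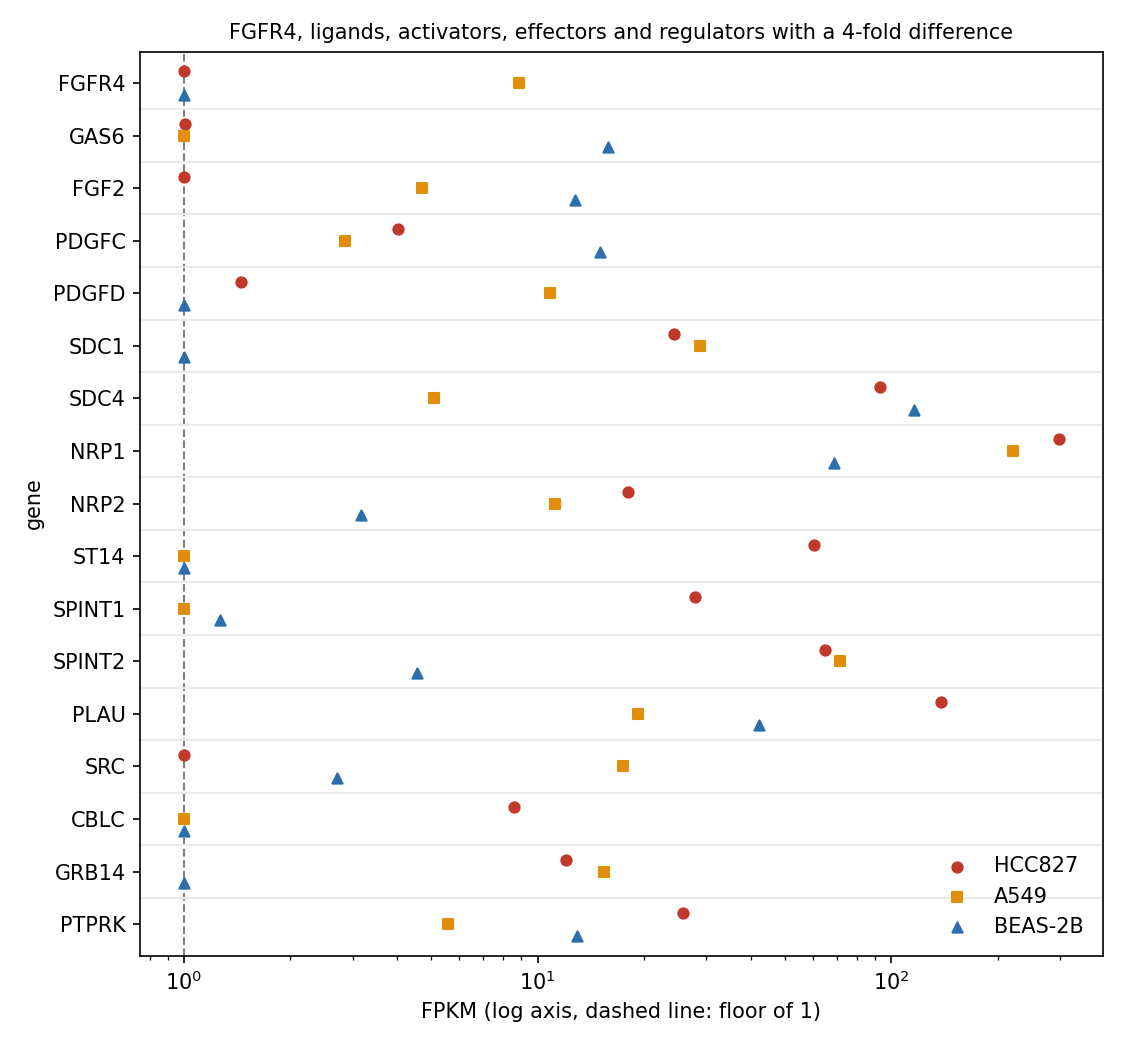
FPKM on a log axis of the 17 family receptors, ligands, coreceptors, activators, effectors and regulators that differed at least 4-fold of FPKM + 1 in a pair of lines, with 1 point per line and the floor of 1 as a dashed line. ST14 and CBLC lie above the floor in HCC827 alone, and GAS6 reaches 15.8 FPKM in BEAS-2B against 1.01 in HCC827 and 1 in A549.

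The lines also differed in markers of cell state. The 5 mesenchymal markers summed to 43.9 FPKM in HCC827, 279 in A549 and 599 in BEAS-2B, the order of AXL, and 2, 4 and 5 of them were above the floor in the same order of lines. VIM, the intermediate filament of mesenchymal cells, had 1.47 FPKM in HCC827, 173 in A549 and 411 in BEAS-2B. The 8 epithelial markers summed to 1253 FPKM in HCC827, 1496 in A549 and 366 in BEAS-2B, with 8, 6 and 5 above the floor. KRT8 alone had 91.6 FPKM in HCC827, 1419 in A549 and 282 in BEAS-2B, and without it, a choice made after seeing the data, the sums were 1161, 76.4 and 83.9 FPKM in the same order. KRT7 had 26.3 FPKM in HCC827, 17.5 in A549 and 74.4 in BEAS-2B, so KRT7 and KRT8 were lower in HCC827 than in BEAS-2B. The defining epithelial markers EPCAM and CDH1 had 166 and 198 FPKM in HCC827 and 4.23 and 18.2 FPKM in A549, and both were listed at the floor in BEAS-2B, which is labelled a normal lung line. Of the 5 fibroblast markers, COL1A1 and THY1 had 60.6 and 44.5 FPKM in BEAS-2B, the only line with PDGFRB above the floor, while COL1A2, LUM and DCN stood at the floor in all 3 lines. The 5 summed to 9.32 FPKM in HCC827, 9.37 in A549 and 108 in BEAS-2B. The basal markers KRT5 and KRT14 were at the floor in each line. TP63, also a basal marker, had 2.03 FPKM in A549 and was listed at the floor in HCC827 and BEAS-2B. Of the alveolar markers NKX2-1 alone was above the floor, with 9.92 FPKM in HCC827. The 3 endothelial markers matched did not exceed 1.36 FPKM. Of 4 blood markers CD68, also a lysosomal protein of other cells, had 29.1 FPKM in HCC827, 5.98 in A549 and 4.09 in BEAS-2B. HBB had 1 FPKM in HCC827, 1.42 in A549 and 1.40 in BEAS-2B, while PTPRC and CD3E were at the floor. The part of cell state in the member differences was not tested. In such bulk samples, fewer cells of a type and less RNA per cell cannot be told apart.

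The genes nearest to MET over the 3 lines were taken by distance of log2(FPKM + 1). They were an entry under a clone name at 0.69, ERRFI1, an inhibitor of the EGFR family, at 0.85, and the chaperonin subunit CCT6A at 0.98. ERRFI1 had 135 FPKM in HCC827, 42.2 in A549 and 24.1 in BEAS-2B. For DDR1 the 3 nearest genes, LYAR, SH3YL1 and C1GALT1, lay at distances of 0.12 to 0.14, closer than those of MET. With 3 lines such likeness is a description.

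The circRNAs of the members were counted and summed by host gene. A circRNA is a closed loop made when an exon's end is spliced back to its own start or to that of an exon before it. Whether the deposited values separate reads of the loop from those of the linear RNA is not stated. Of the 124 member circRNAs, 4 were above 0 TPM in HCC827 (3.23%), 61 in A549 (49.2%) and 64 in BEAS-2B (51.6%). Over all circRNAs the shares were 5.34% in HCC827, 47.5% in A549 and 46.2% in BEAS-2B, with median values among those above 0 of 63.4 TPM in HCC827, 4.51 TPM in A549 and 5.17 TPM in BEAS-2B. HCC827 thus listed few circRNAs, each at a high value, and a member at 0 there is listed at 0 as most circRNAs are. The TPM of each line add up to a nearly equal total, which in HCC827 is divided among fewer circRNAs. Of the values above 0, 10 in A549 and 8 in BEAS-2B lay under 0.01 TPM.

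MET had 7 circRNAs listed, which summed to 605 TPM in HCC827, 121 TPM in A549 and 57.6 TPM in BEAS-2B, the order of its mRNA. Per FPKM of MET mRNA the sum was 2.71 TPM in HCC827, 2.09 TPM in A549 and 2.27 TPM in BEAS-2B. After scaling the circRNA table by the median of ratios, the MET ratios were 1.31 TPM in HCC827, 3.14 TPM in A549 and 3.09 TPM in BEAS-2B, so the place of HCC827 among them rests on the scaling. In HCC827, hsa_circ_0082002, listed on chromosome 7 from 116339124 to 116340338, held 64.0% of the sum, with 387 TPM in HCC827, 0.141 TPM in A549 and 5.72 TPM in BEAS-2B. The circRNA hsa_circ_0082003 starts at the same base and spans 58704 bases to 116397828. It was above 0 in each line, with 80.4 TPM in HCC827, 64.9 TPM in A549 and 28.3 TPM in BEAS-2B, and it held most of the sum in A549. The circRNA hsa_circ_0082005, from 116380003 to 116438440, had 138 TPM in HCC827, 0.00117 TPM in A549 and 0.168 TPM in BEAS-2B. By contrast hsa_circ_0082006 was at 0 in HCC827 and had 52.3 TPM in A549 and 19.9 TPM in BEAS-2B. Positions are as the deposited table lists them, with hg19 as the build named in the submitters' processing notes.

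AXL had 53 circRNAs listed, the most of any member. They summed to 0 TPM in HCC827, 165 TPM in A549 and 678 TPM in BEAS-2B, the order of AXL mRNA. The leading ones in BEAS-2B were hsa_circ_0051160, on chromosome 19 from 41726540 to 41737203, with 0 TPM in HCC827, 32.1 TPM in A549 and 160 TPM in BEAS-2B, and a pair that share the start 41754418. Of this pair, hsa_circ_0051190 had 0 TPM in HCC827, 21.2 TPM in A549 and 130 TPM in BEAS-2B, and hsa_circ_0051191 had 0, 12.4 and 113 TPM in the same order. The AXL sum was spread over many circRNAs, and the highest held 19.4% of it in A549 and 23.6% in BEAS-2B.

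FGFR1 had 16 circRNAs, which summed to 38.4 TPM in HCC827, 438 TPM in A549 and 135 TPM in BEAS-2B, again the order of its mRNA. Unlike AXL, 1 circRNA held most of this. That circRNA, hsa_circ_0083998, had 0 TPM in HCC827, 361 TPM in A549 and 118 TPM in BEAS-2B, and hsa_circ_0084010 had 0, 35.7 and 7.48 TPM in the same order. The whole sum in HCC827 came from hsa_circ_0084001, which was at 0 in the other lines, so no FGFR1 circRNA was above 0 both in HCC827 and in another line.

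For the other members the sums in HCC827 were 0 TPM. DDR1 had 1 circRNA, hsa_circ_0078907, with 39.3 TPM in A549 and 19.6 TPM in BEAS-2B, listed on the alternative haplotype sequence of chromosome 6 named 6_mann_hap4. ROR1 had 5, which summed to 17.9 TPM in A549 and 6.60 TPM in BEAS-2B, nearly all of it in hsa_circ_0000081. PDGFRB had 12, with 0.164 TPM in A549 and 19.2 TPM in BEAS-2B, led by hsa_circ_0074517 at 0 TPM in A549 and 8.98 TPM in BEAS-2B. DDR2 had 10, with 0.722 TPM in A549 and 5.71 TPM in BEAS-2B. FGFR3 had 9, with 10.4 TPM in A549 and 3.72 TPM in BEAS-2B. Each of these followed the order of its mRNA in A549 and BEAS-2B. MST1R and FGFR2, whose mRNA was listed at the floor in both lines, still had circRNA sums, for MST1R 14.1 TPM in A549 and 8.45 TPM in BEAS-2B, and for FGFR2 3.03 TPM in A549 and 0.257 TPM in BEAS-2B. In HCC827, where MST1R mRNA was above the floor, its circRNAs were at 0.

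**Figure D5:**
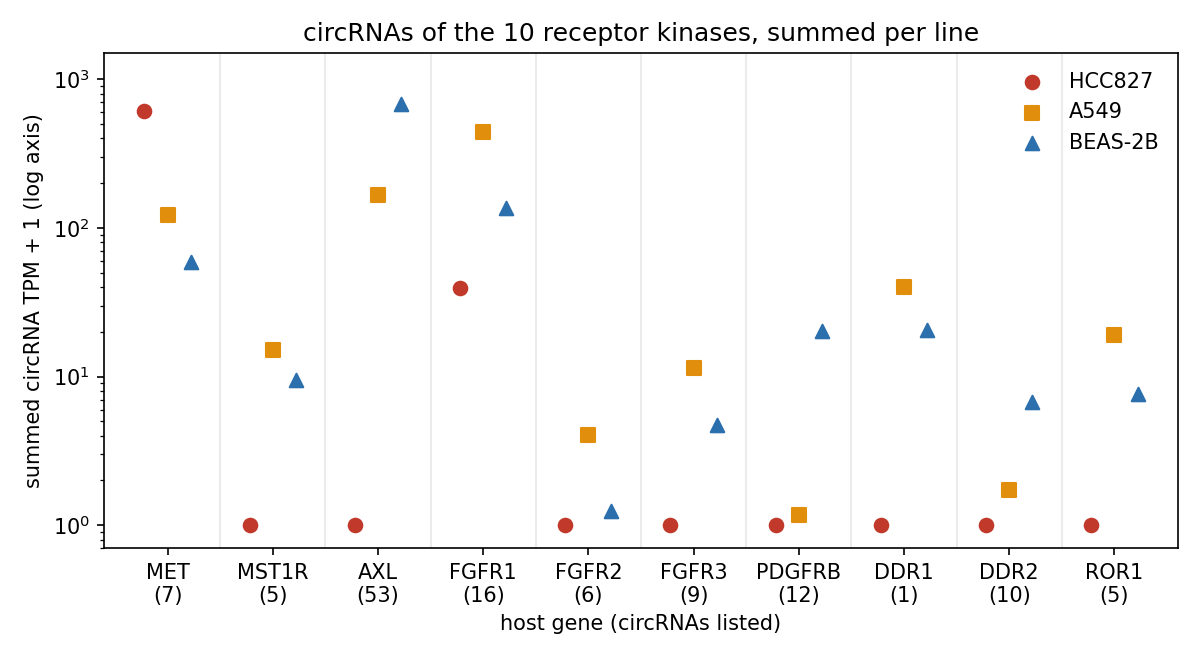
Summed circRNA TPM plus 1 of each receptor kinase on a log axis, with 1 point per line and the number of circRNAs listed below each gene. In HCC827 only MET, with 605 TPM, and FGFR1, with 38.4 TPM, had circRNAs above 0.

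Single circRNAs were compared in a pair of lines when 1 of them had over 5 TPM, at 2-fold of TPM + 1. In A549 against BEAS-2B, 29 member circRNAs could be compared, and 9 were higher and 16 lower, beside 16.7% of 25512 circRNAs that were higher and 20.6% that were lower. AXL gave 13 of those lower and 2 of those higher, out of 18. All 4 compared of FGFR1 were higher, and of MET 2 were higher and 1 lower of 3. In HCC827 against BEAS-2B, 27 could be compared, and 4 were higher and 23 lower, beside 14.6% of 23736 circRNAs that were higher and 82.3% that were lower. The share of members that were lower was thus near that of all circRNAs, and their median difference was -3.57, beside -3.63 over all. Those higher were 3 of MET and 1 of FGFR1, and all 16 of AXL were lower. CircRNAs of 1 host share its transcripts and are no replicates of each other.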

How the data were processed

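RNA depleted of ribosomal RNA from HCC827, A549 and BEAS-2B was made into 1 library per line and read on an Illumina HiSeq. The mRNA values were FPKM as deposited by the authors, for which the study's methods name PEAT, STAR, Cufflinks and GENCODE with the mouse build mm10, while the submitters' processing notes name sleuth, kallisto, FastQC 0.11.7 and hg19 with no file or role for each. The circRNA values were TPM as deposited by the authors, and which of the programs in these notes, if any, made them is not stated. RNA was extracted with Trizol per the labels and with an RNeasy kit per the methods. Ratios of FPKM and of TPM that the authors deposited were not used.

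Of 20635 names, 117 that were repeated and 28 that had turned to numbers or dates were left out, some of them in both groups, which left 20494. Differences were computed on log2(FPKM + 1) with Python 3.11.15, pandas 2.3.3 and numpy 2.4.6. Genes above 1 FPKM in at least 1 line of a pair were compared at 2-fold, and circRNAs over 5 TPM in 1 line at 2-fold of TPM + 1. With 1 library per line no test was run, and without counts no interval could be given. Named were all members, list genes with a 4-fold difference, the 3 genes nearest to MET, AXL and DDR1, and the leading circRNAs of each member. Further genes, circRNAs and markers were named after their values were seen. The members and the 129 genes of the lists, all matched, were chosen with earlier results of these data known. Alternatives were no pseudocount or 5, scaling by the median of ratios or the upper quartile, other filters on low values and a 4-fold difference. For circRNAs they were levels of 1 and 5 TPM, scaling, and leaving out circRNAs that share values with another host, of which there were 0 among the members. Promoters of 9 members and the miRNAs came from RefSeq tables on GRCh38.p14.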

Additional observations from a re-analysis of the deposited data

Results flagged for a closer look

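FGFR1 and PLAU moved in opposite directions in the 2 adenocarcinoma lines relative to BEAS-2B, each by over 2-fold. FGFR1 mRNA differed by -1.26 in HCC827 minus BEAS-2B and by 1.24 in A549 minus BEAS-2B on the log2(FPKM + 1) scale. With a pseudocount of 5 these FGFR1 differences were -0.65 and 0.89, both under 2-fold. The summed circRNAs of FGFR1 had the same order, 38.4 TPM in HCC827, 438 TPM in A549 and 135 TPM in BEAS-2B. However, HCC827 listed only 5.34% of all circRNAs above 0, and its FGFR1 sum came from 1 circRNA that was at 0 in the other lines. PLAU, the urokinase protease, differed by 1.69 in HCC827 minus BEAS-2B and by -1.10 in A549 minus BEAS-2B. With a pseudocount of 5, and under either scaling, PLAU was no longer past 2-fold lower in A549 than in BEAS-2B. With 1 library per line these differences between the lines were not tested, and both comparisons share the BEAS-2B library.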

How the results depend on the processing

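Of 120 member differences recomputed under the alternatives, 112 stayed on the same side of 2-fold without a change of sign. Another 5 fell under 2-fold, 1 passed it and 2 changed sign within it. The 112 include members at the floor in both lines of a pair, whose difference of 0 has no direction. Those that changed sign were both FGFR3 in HCC827 minus BEAS-2B, at -0.03 as deposited, 0.08 with the median of ratios and 0.05 with the upper quartile. Those under it were FGFR1 (0.89) and ROR1 (0.66) in A549 minus BEAS-2B, MST1R (0.70) and FGFR1 (-0.65) in HCC827 minus BEAS-2B, and MST1R (0.70) in HCC827 minus A549, each with a pseudocount of 5, which shrinks low values by construction. DDR1 in A549 minus BEAS-2B reached 1.00 with scaling by the median of ratios. That scaling moved the median of all genes by 0.19 in A549 minus BEAS-2B and by 0.18 in HCC827 minus BEAS-2B, and the upper quartile by 0.17 and 0.12. With a pseudocount of 5, 1 member was higher and 2 lower in A549 against BEAS-2B, and 2 higher and 2 lower in HCC827 against BEAS-2B. In HCC827 against A549, 1 was higher and 2 lower. Over all genes 612 were higher and 785 lower in A549 against BEAS-2B, 763 and 1000 in HCC827 against BEAS-2B, and 785 and 729 in HCC827 against A549. The setting with genes above the floor in both lines leaves out every member at the floor. Then 3 members were higher and 1 lower in A549 against BEAS-2B, and 2 higher and 1 lower in HCC827 against BEAS-2B. In HCC827 against A549, 1 was higher and 1 lower. Over all genes 817 were then higher and 1497 lower in A549 against BEAS-2B, and 1017 higher and 1558 lower in HCC827 against BEAS-2B. In HCC827 against A549, 1162 were higher and 1054 lower. At 4-fold, 0 members were higher and 2 lower in A549 against BEAS-2B, and 1 higher and 2 lower in HCC827 against BEAS-2B. In HCC827 against A549, 0 were higher and 2 lower. Over all genes 376 were higher and 374 lower, 493 higher and 452 lower, and 476 higher and 400 lower in these 3 comparisons. Above 1 TPM, 4 member circRNAs were listed in HCC827, 37 in A549 and 42 in BEAS-2B, and above 5 TPM, 4, 19 and 25. The shares over all circRNAs at these levels were not computed, so these counts have no background beside them. The log2 ratio of all member circRNA sums, HCC827 over BEAS-2B, was -0.54 as deposited and -2.03 after scaling by the median of ratios. No member difference past 2-fold changed sign. Over all genes the balance of calls turned with the scaling, in both comparisons with BEAS-2B under either scaling and in HCC827 against A549 under the upper quartile, with 1704 higher and 1788 lower in place of 1808 and 1622. The MET circRNA sum, as a log2 ratio of HCC827 over BEAS-2B, was 3.37 as deposited and 1.88 after scaling.

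No paired analysis was possible because each line has 1 library. Values at the floor, the unknown depth, the few circRNAs listed in HCC827 and the single libraries limit every difference given. Whether the lines differ beyond the spread between cultures was not tested.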

Other observations

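The genes beside MET and AXL in the order of the RefSeq annotation were read as values. On the MET side, CAV1, the coat protein of caveolae, had 233 FPKM in HCC827, 147 in A549 and 195 in BEAS-2B, and CAV2 had 42.7, 24.1 and 23.2 FPKM in the same order. TES had 27.6 FPKM in HCC827, 13.4 in A549 and 23.4 in BEAS-2B, and CAPZA2, the next gene after MET, had 6.37, 6.89 and 7.56 FPKM in the same order. These 4 were within 2-fold in HCC827 against BEAS-2B, whereas MET differed by 3.09 on the log2 scale. ST7, 2 genes after MET, was lower, with 1.06 FPKM in HCC827, 3.10 in A549 and 4.36 in BEAS-2B and a difference of -1.38 for HCC827 minus BEAS-2B, and WNT2 was at the floor in all 3 lines. On the AXL side, HNRNPUL1 had 22.4 FPKM in HCC827, 82.2 in A549 and 61.7 in BEAS-2B, and CYP2S1, listed just before AXL, had 12.3 FPKM in A549 and stood at the floor in HCC827 and BEAS-2B. TGFB1, 3 genes after AXL, had 8.06 FPKM in HCC827, 20.4 in A549 and 14.1 in BEAS-2B. CCDC97, 2 genes after AXL, had 6.98, 15.1 and 6.75 FPKM in the same order. On the other side of AXL, CYP2F1 had 2.60, 2.24 and 2.02 FPKM, and CYP2A13 was at the floor in all 3 lines. For HCC827 minus BEAS-2B, HNRNPUL1 differed by -1.42 and TGFB1 by -0.74, against 0.04 for CCDC97 and 0.25 for CYP2F1.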
